A study of Mus musculus with 13 samples.

Results

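Glucocorticoid receptor (GR) binding in the liver of control mice was compared between dexamethasone and vehicle, from the peak lists of the 2 states. The members were all 70864 peaks of both lists, 40853 under dexamethasone and 30011 under vehicle, of 217044 peaks in the 7 lists of the series. Livers of male mice gave 13 libraries in the series, 12 by chromatin immunoprecipitation (ChIP-seq) and 1 of input. Control animals carry the genotype label GFP and are titled Cont; the comparison genotype is labelled CRE and titled dKO, a knockout that includes the corepressor NCOR1 per the series design. Strain, age, the promoter of the Cre and any allele that the controls share with the knockouts are not given in the sources used here. Animals received vehicle (saline per the series design) or dexamethasone at 1 mg/kg by intraperitoneal injection at zeitgeber time 8. Tissue was collected at zeitgeber time 10, that is 2 h after the injection. Each GR list pools 2 libraries titled as biological replicates, so the spread between animals is not known and no test was possible. Bulk liver was used, and fewer cells with bound GR cannot be told apart from less GR bound per cell.

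GR is a nuclear receptor that sits in the cytoplasm with chaperones until a glucocorticoid binds it, then enters the nucleus and binds DNA, often as a dimer on a palindrome of a short half-site, the glucocorticoid response element. In mice, which are active at night, endogenous corticosterone climbs through the light phase, and GR is known to occupy chromatin late in the day without added hormone. Dexamethasone is a synthetic glucocorticoid that activates GR strongly. In hepatocytes GR is known for turning on genes of gluconeogenesis and amino acid breakdown and for dampening inflammatory genes.

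The lists give each peak as a 200 bp site with a normalized tag count, the number of sequenced tags per 10 M (tag count below; M stands for 10 to the power of 6). A dexamethasone and a vehicle peak that shared at least 1 bp were called a shared site, and its change was the log2 ratio of dexamethasone over vehicle tag counts minus the median ratio over all shared sites (the centred log2 ratio). A shared site was called raised or lowered where it differed by at least 2-fold after centring. Sequences of 300 bases around a transcription start, from RefSeq on GRCm38.p6, are shown first because they place the palindrome relative to sites that changed. Capitals mark ACANNNTGT, the core of the GR palindrome with its spacer of any bases. The 4 sequences before the last are the promoters of the most raised sites among stronger sites (geometric mean count of at least 14.4) with this core inside the site, and the last is that with the lowest ratio among them.
Fam107a: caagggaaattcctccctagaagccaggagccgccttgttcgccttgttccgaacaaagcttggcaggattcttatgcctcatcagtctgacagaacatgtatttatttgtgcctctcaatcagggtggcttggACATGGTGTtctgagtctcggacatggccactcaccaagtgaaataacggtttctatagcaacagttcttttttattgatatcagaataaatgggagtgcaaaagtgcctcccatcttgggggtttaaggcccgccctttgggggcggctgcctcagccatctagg
Fyb2: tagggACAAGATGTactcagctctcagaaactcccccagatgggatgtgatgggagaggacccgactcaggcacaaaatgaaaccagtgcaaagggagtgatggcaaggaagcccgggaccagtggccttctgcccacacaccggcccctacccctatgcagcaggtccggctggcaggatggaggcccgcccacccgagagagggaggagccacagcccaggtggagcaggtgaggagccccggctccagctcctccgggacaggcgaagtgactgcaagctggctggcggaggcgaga
C1qc: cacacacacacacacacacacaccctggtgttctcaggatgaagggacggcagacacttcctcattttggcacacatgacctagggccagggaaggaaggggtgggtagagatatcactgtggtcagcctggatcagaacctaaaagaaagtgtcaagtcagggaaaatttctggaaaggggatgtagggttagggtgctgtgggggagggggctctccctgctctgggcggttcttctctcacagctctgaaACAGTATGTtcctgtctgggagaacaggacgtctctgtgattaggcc
Phyhd1: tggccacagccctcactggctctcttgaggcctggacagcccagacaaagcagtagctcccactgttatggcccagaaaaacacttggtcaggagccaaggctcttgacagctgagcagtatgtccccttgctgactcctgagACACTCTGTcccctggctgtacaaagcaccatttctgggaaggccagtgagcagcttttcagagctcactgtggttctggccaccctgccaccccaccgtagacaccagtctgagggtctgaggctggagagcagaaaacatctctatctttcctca
Slc25a24: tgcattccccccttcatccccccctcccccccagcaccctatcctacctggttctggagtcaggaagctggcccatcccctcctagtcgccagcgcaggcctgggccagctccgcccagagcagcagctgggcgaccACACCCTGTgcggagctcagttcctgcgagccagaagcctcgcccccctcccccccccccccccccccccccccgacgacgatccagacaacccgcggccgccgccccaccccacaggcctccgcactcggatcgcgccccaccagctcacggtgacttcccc

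At Fam107a, an actin-associated protein gene known as a glucocorticoid-induced stress gene, GR had a tag count of 9.1 under vehicle and 92.2 under dexamethasone, a 10.1-fold ratio and a centred log2 ratio of 3.27. The promoter lies at chr14:8309730-8310029 on the minus strand, and the core stood 5 bp from the centre of the site. At Fyb2, which encodes an adaptor protein (chr4:104913311-104913610, plus strand), the counts were 12 and 60.3, a centred log2 ratio of 2.26. C1qc encodes a chain of complement C1q, which macrophages make (chr4:136892865-136893164, minus strand). Its counts of 12.2 and 48.0 gave 1.91. Phyhd1 encodes a dioxygenase related to phytanoyl-CoA hydroxylase (chr2:30265953-30266252, plus strand), with counts of 35.1 and 135.5 and a centred log2 ratio of 1.88. These 4 were picked for their high ratios, the smallest of which was 3.86-fold, so that all of them rose follows from the choice. Slc25a24, a mitochondrial carrier gene (chr3:109122899-109123198, plus strand), had 27.1 and 14.3, a centred log2 ratio of -0.99, just short of a lowered call. In Fam107a and Fyb2 the core was also part of a longer form of the palindrome, with 1 further fixed base on each side, and in the other 3 it was not.

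Over the 32817 promoter windows of RefSeq, 6.85% held ACANNNTGT on either strand and 0.475% held the longer form, every match of which is also a match of the core. The windows used here did not include chromosome 18. Of the 70 windows with a raised shared site 25.7% held the core (95% Clopper-Pearson interval 16 to 37.6) and 11.4% the longer form (5.07 to 21.3). Of 1922 windows with a shared site that was neither raised nor lowered, 6.76% held the core, and of 36 with a lowered site 1 did. Inside the site itself, the core lay in 15 of 63 raised sites (23.8%, 14.0 to 36.2), in 76 of 1617 sites within 2-fold (4.70%, 3.72 to 5.85) and in 0 of 33 lowered sites, for which the upper limit is 10.6%. The raised promoter sites thus carried the core more often than the others by more than the counting error, over the few sites that fall in these windows. Windows with a dexamethasone-only peak held it in 6.50% and those with a vehicle-only peak in 2.67%. A match is a run of letters and not a measured binding site, and sequence away from the promoters was not analysed here.

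Most vehicle sites were also called under dexamethasone, and the dexamethasone list had more condition-only sites than the vehicle list. Shared sites numbered 24576, which is 81.9% of the vehicle list (81.4 to 82.3) and 60.2% of the dexamethasone list (59.7 to 60.6). Dexamethasone-only sites, with no vehicle peak within 500 bp, numbered 15195 (37.2%, 36.7 to 37.7), and vehicle-only sites 4544 (15.1%, 14.7 to 15.6). A further 1082 dexamethasone and 891 vehicle peaks lay within 500 bp of a peak of the other list without overlap and were kept apart as shifted. The dexamethasone list rested on 30 M tags, of which 7.23% lay in peaks, and the vehicle list on 27.5 M tags and 5.0%. At the overlap limit, 84 shared sites overlapped by 1 to 20 bp, and 80 peaks lay 0 to 19 bp apart. At the distance limit, 29 peaks lay up to 20 bp inside and 31 up to 20 bp beyond 500 bp from the nearest peak of the other list.

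At shared sites the typical ratio was near 1, with a tail of sites that gained GR. The median log2 ratio was 0.07 (1.05-fold), and the SD over sites was 0.72, against 0.33 from counting error alone. Sites ran from -2.01 to 4.52 after centring, and 5% to 95% of them from -0.93 to 1.34. Raised sites numbered 2474 (10.1% of shared sites) and lowered sites 854 (3.47%). In each of these the counting interval of the ratio lay apart from 0. The sites were picked by this same ratio, so the interval is no separate support for the calls. It covers counting error only and not the spread between animals. With the ratio centred instead on the strongest of 5 equal classes of sites by strength, whose median was higher by 0.46 on the log2 scale, 968 sites were raised and 5316 lowered, so that 15.4% of the calls were raised against 74.3%. Among peaks with at least 8-fold over input and over the local 10 kb in both lists, which had their own centre, 1447 were raised and 107 lowered (93.1% of the calls). All directions given here are relative to the median of all shared sites.

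**Figure D1:**
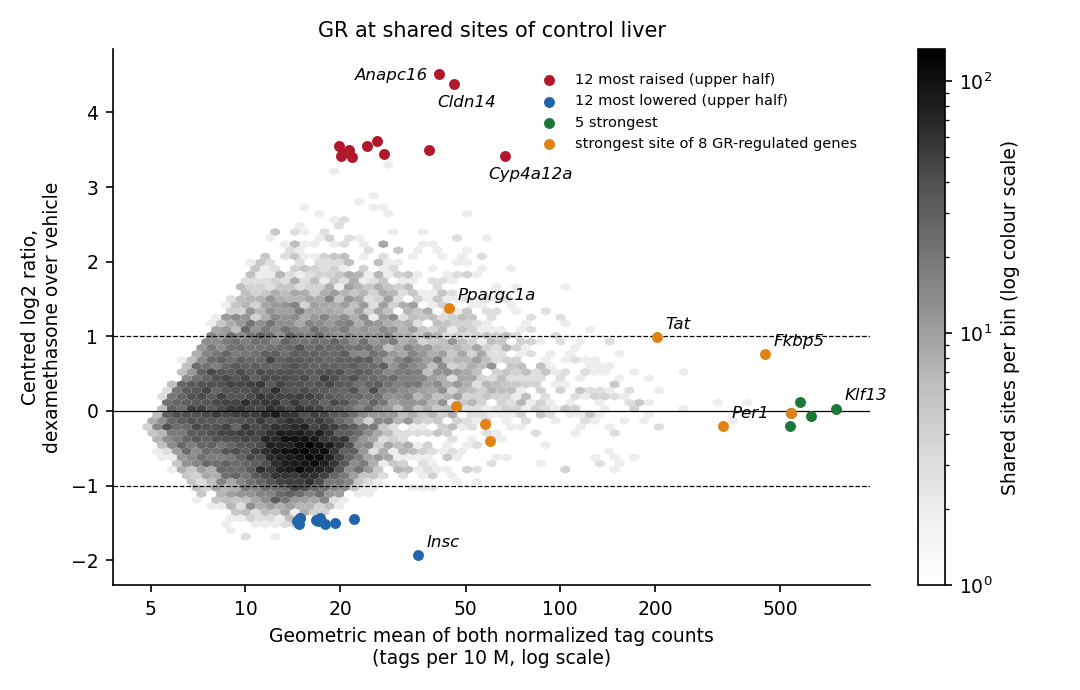
Centred log2 ratio of dexamethasone over vehicle (vertical axis) against the geometric mean of both tag counts (horizontal, log scale) for the 24576 shared sites in grey hexagons shaded by number, with named sites in colour (the Zbtb16 site, in both sets, in orange) and dashed lines at 2-fold. The cloud has a dense group below 0 at counts near 15 and a band above 0 that runs to higher counts, and the 5 strongest sites lie close to 0.

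The spread depended on strength. In 5 equal classes of the geometric mean tag count, from weak to strong, the median centred log2 ratio was -0.01, -0.08, -0.31, -0.19 and 0.46. The SD was 0.51, 0.69, 0.70, 0.76 and 0.72, whereas counting error alone gave 0.44, 0.36, 0.32, 0.29 and 0.22. The spread therefore exceeded counting error least in the weakest class and most in the strongest. Raised sites made up 3.07% of the weakest class and 20.5% of the strongest, and lowered sites 2.20% and 0.610%. A shared site needs a peak in both lists, whose weakest counts were 4.16 under dexamethasone and 4.55 under vehicle. Weak sites therefore had less room for a large ratio. The highest ratio was 1.68 in the weakest class and 4.52 in the strongest, and the lowest -1.98 and -1.93. The part of this limit in the trend with strength was not tested. The strongest sites of all stood apart from this trend. Among the strongest 100 sites the median was 0.09, 2 sites were raised and 0 lowered, whereas among the next 900 the median was 0.47 and 180 sites (20.0%) were raised.

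The strongest shared site lay in Klf13, a Krüppel-like transcription factor gene, with 724.8 under vehicle and 777.6 under dexamethasone (centred log2 ratio 0.03, counting interval -0.05 to 0.12). A site 86.0 kb from Ptpn1, the phosphatase that dampens the insulin receptor, had 626.3 and 626.2. A site 1.86 kb from the agouti gene had 542.6 and 617.2. Inside Zbtb16, a zinc finger repressor gene known to respond to glucocorticoids, the strongest site had 533.1 and 547.6, and a site nearest to Armc12, next to Fkbp5, had 560.1 and 512.3. These 5 sites differed by 0.20 or less on the log2 scale, so the pooled lists gave nearly equal counts there with and without the drug.

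The site with the largest gain lay inside Anapc16, which encodes a subunit of the anaphase-promoting complex (chr10:59997607-59997807). Its tag count was 8.37 under vehicle and 201.8 under dexamethasone, a 24.1-fold ratio (centred log2 ratio 4.52, counting interval 3.92 to 5.19). A site 6.03 kb from Cldn14, a tight junction claudin gene, went from 9.83 to 214.3, which is 21.8-fold. The site inside Cyp4a12a, a fatty acid omega-hydroxylase gene expressed mainly in male mouse liver, went from 20.0 to 222.6. The vehicle counts of the Anapc16 and Cldn14 sites lay below the vehicle list's median of 13.3.

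The other 9 of the 12 most raised sites had centred log2 ratios from 3.40 to 3.62, with vehicle counts of 5.64 to 11.1 and dexamethasone counts of 66.9 to 132.0. They lay inside or nearest to Wipf1 (an actin regulator), Serpina3n (an acute-phase protease inhibitor), Gpat4 (an acyltransferase of triglyceride synthesis), Mctp2, Efcab11, Tac4 (a tachykinin precursor) and Sox6 (a transcription factor). A site at chr11:48901342-48901542 lay in an unnamed gene model, and a site at chr11:111362644-111362844 had no protein-coding gene within 100 kb. Gpat4 had 11.1 under vehicle and 132.0 under dexamethasone, and Serpina3n 5.64 and 69.4. Assignment is to the nearest gene body and does not show which gene a site acts on, nor is a peak a measure of expression. Sites at Cyp4a12a, Serpina3n and other genes with close copies are uncertain, since the handling of reads that map to several places is not given in the sources used here.

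Among sites with a geometric mean count of at least 14.4, the largest drop was 29.0 kb from Insc, a spindle orientation gene, where the count was 67.2 under vehicle and 18.5 under dexamethasone, a 0.275-fold ratio (centred log2 ratio -1.93, counting interval -2.38 to -1.48). The other 11 of the 12 most lowered sites lay between -1.52 and -1.43, with vehicle counts of 23.8 to 35.7 and dexamethasone counts of 8.99 to 13.7. Cox4i2, a cytochrome c oxidase subunit gene, had 29.5 and 10.8. Bsg, which encodes the lactate transporter chaperone basigin, had 27.1 and 10.3, and C2cd5, a gene of insulin-stimulated vesicle traffic, 28.0 and 10.7. Others lay at Frmpd3, Dlgap4, Saraf (a regulator of store-operated calcium entry), the olfactory receptor gene Olfr846, Adamtsl1 and, with no gene within 100 kb, on chromosomes 8 and 18. A site could drop only as far as the calling limit of the dexamethasone list, whose weakest peak had a count of 4.16, before it left the shared class.

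**Figure D2:**
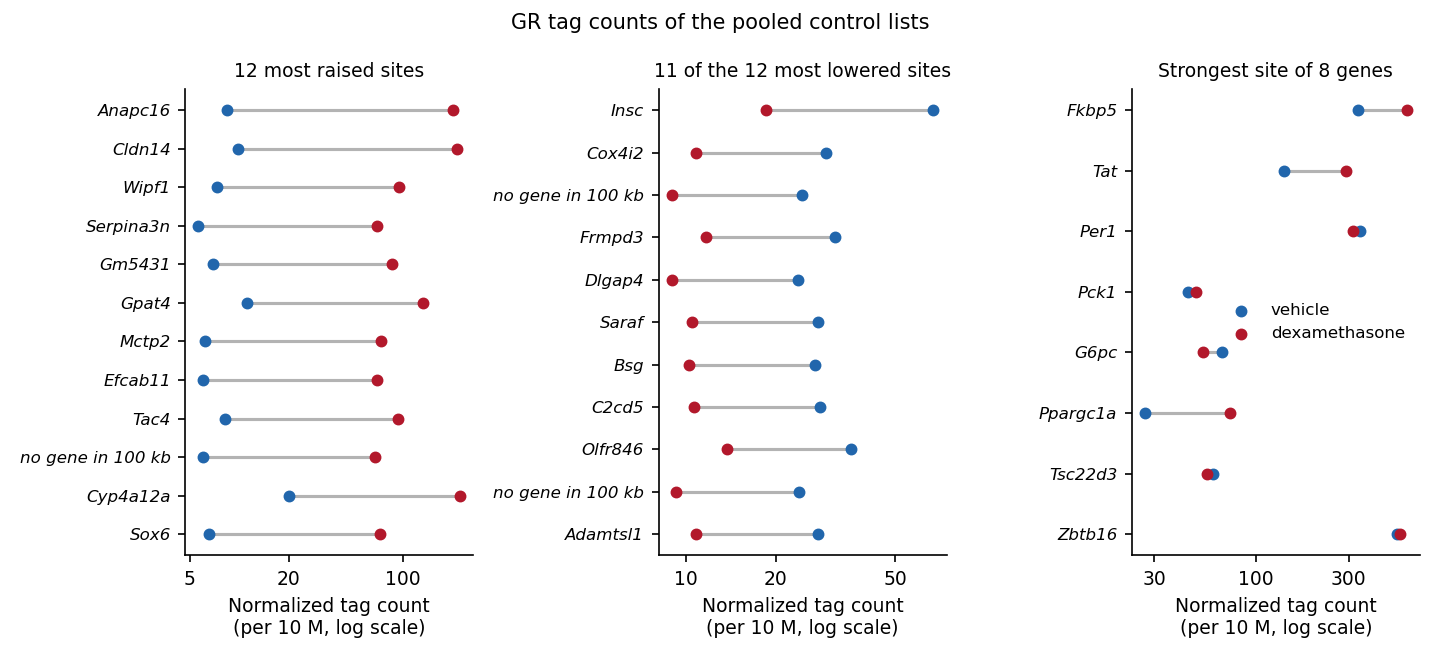
Normalized tag counts (per 10 M, log scale) under vehicle in blue and dexamethasone in red at the 12 most raised sites, 11 of the 12 most lowered sites and the strongest shared site of 8 GR-regulated genes, each point 1 pooled list. Most raised sites start between 5.64 and 20.0 under vehicle, whereas Per1, Pck1, Tsc22d3 and Zbtb16 have nearly equal counts in both states.

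Well-known GR genes combined steady and raised sites. Fkbp5, the gene of a GR cochaperone that limits hormone binding, had 7 shared sites. Its main intragenic site had 335.3 and 595.6 (0.76), a site starting at 28463966 on chromosome 17 had 15.8 and 53.6 (1.69), and one at 28407993 had 9.83 and 27.3 (1.40). A site at 28442317 had 96.1 and 140.5 (0.48), and the other 3 sites lay between -0.41 and -0.05. Of the 13 dexamethasone peaks of Fkbp5, 5 were dexamethasone-only, with counts of 115.4, 39.8, 38.3, 29.0 and 10.3. Over all dexamethasone peaks with a gene within 100 kb, 37.5% were dexamethasone-only. Fkbp5 also had 1 vehicle-only site of 14.7. The raised and dexamethasone-only sites stood beside main sites that were occupied under vehicle.

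Zbtb16 showed the same mix over 14 shared sites. Apart from its strongest site, sites starting at 48737528 and 48729583 on chromosome 9 had 311.1 and 233.3 (-0.48) and 151.6 and 122.9 (-0.37). A site at 48783373 had 25.3 and 106.1 (2.00), and one at 48787385 had 39.3 and 111.1 (1.43). Of its 23 dexamethasone peaks 8 were dexamethasone-only. The strongest of these, at 207.5, lay 908 bp from the nearest vehicle peak. The others had counts of 9.32 to 36.8.

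Tat, which encodes tyrosine aminotransferase, the first enzyme of tyrosine breakdown, had 4 shared sites. The intragenic site had 140.0 and 291.9 (0.99, just under the raised limit), and the others had 53.5 and 85.8, 90.6 and 93.7, and 40.2 and 38.5. Per1, a clock gene with a known glucocorticoid response element, had 344.4 and 314.9 (-0.20) and 143.6 and 183.7 (0.29) at its 2 shared sites. No site of either gene passed 2-fold.

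Among gluconeogenic genes, Pck1, the gene of phosphoenolpyruvate carboxykinase, had 44.6 and 49.1 (0.07) at a site 312 bp from its start, and 31.1 and 27.8 (-0.23) at a second site. G6pc, the gene of the glucose-6-phosphatase catalytic subunit, had 67.2 and 53.6 (-0.40), 44.2 and 72.6 (0.65), 24.9 and 28.6 (0.13), and 28.8 and 27.1 (-0.16). Pck1 and G6pc each had 1 dexamethasone-only site, at 19.6 and 9.49. Neither gene had a raised or lowered shared site.

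Ppargc1a, the gene of a coactivator of gluconeogenesis, had 14 shared sites, of which 3 were raised and 1 lowered. Its strongest site had 26.9 and 73.3 (1.38), whereas a site at 52045754 on chromosome 5 had 21.8 and 9.82 (-1.22). Its 25 dexamethasone peaks included 8 dexamethasone-only sites, the strongest at 34.1. Tsc22d3, which encodes the anti-inflammatory mediator GILZ, had 59.9 and 55.8 (-0.17) at its strongest site. Of its 11 shared sites 2 were raised, with 11.6 and 25.3 (1.06) and 6.01 and 15.3 (1.28).

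Members of each functional group were taken from 14 gene lists and compared with all 21830 shared sites that had a protein-coding gene within 100 kb. Of these, 10.2% were raised and 3.19% lowered, with a median centred log2 ratio of 0.02. Among peaks with such a gene, 37.5% of the dexamethasone list were dexamethasone-only and 15.7% of the vehicle list vehicle-only. Shared sites of 13 lists had a positive median and those of 1 a negative median. With the ratio centred on the strongest class of sites, the medians of all lists turn negative except fatty acid oxidation (0.03) and endothelial, stellate and cholangiocyte markers (0.05), and the median of all these sites becomes -0.44. In 12 of the 14 lists the shared sites were stronger than all sites with a gene, by the median of the geometric mean count (14.5 for all, 37.5 for the GR target genes). In the strongest class of sites alone, where all sites with a gene had a median of 0.46, 11 lists had a lower median, 1 had the same and 2 a higher one. The GR target genes there had 0.33 and the clock genes 0.19.

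GR target genes had 82 shared sites, of which 15 (18.3%) were raised and 0 lowered, with a median of 0.27 (-0.19 by the other centring). Gadd45g, a stress-response gene, had 33.5 and 198.3 (2.50) at a site 17.8 kb away. Errfi1, a feedback inhibitor of EGF receptor signalling, had 8.37 and 30.6 (1.80). Dusp1, the phosphatase that switches off MAP kinases, had 48.1 and 148.7 (1.56) and 3 sites within 2-fold. Nfkbia, the NF-κB inhibitor, had 5 shared sites between -0.12 and 0.73, the strongest with 154.2 and 183.2. The metallothionein genes had 148.0 and 173.3 (0.16) at the strongest Mt1 site and 115.2 and 192.5 (0.67) at the strongest Mt2 site. Dexamethasone-only sites made up 27.9% of the dexamethasone peaks of this list.

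Gluconeogenesis and its regulators had 81 shared sites with 10 raised (12.3%) and 2 lowered (2.47%), against 10.2% and 3.19% of all sites. The median was 0.23, or -0.23 by the other centring. The raised sites fell at 4 genes. Klf15, a transcription factor of amino acid and glucose metabolism, had 33.5 and 95.6 (1.44), Pdk4, the kinase that spares pyruvate, 12.4 and 34.3 (1.40), and Cebpb, a hepatic transcription factor, 62.8 and 132.0 (1.00) at a site 87.1 kb from the gene. Of the 6 shared sites of Pdk4, 4 were raised. At Klf15 the strongest of 9 sites had 118.7 and 152.4 (0.29), so the raised site was not its strongest under vehicle.

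Amino acid catabolism and urea cycle genes had 55 shared sites, 8 raised (14.5%) and 0 lowered (median 0.42, -0.04 by the other centring). Ass1, the urea cycle enzyme argininosuccinate synthase, had 19.1 and 86.4 (2.11). Cdo1, the cysteine dioxygenase gene, had 9.65 and 42.0 (2.05). Gpt2, an alanine aminotransferase, had 25.8 and 74.9 (1.47), and Arg1, the arginase of the urea cycle, 11.3 and 26.6 (1.17).

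Insulin signalling and glycogen genes had 77 shared sites, 12 raised (15.6%) and 2 lowered (2.60%), with a median of 0.32 (-0.14 by the other centring). Irs2, an insulin receptor substrate, had 15.1 and 99.1 (2.65) at a site 73.5 kb from the gene body, and Insr, the receptor itself, 6.55 and 46.8 (2.77). Pik3r1, the regulatory subunit of PI3-kinase, had 12.4 and 62.8 (2.27). Ppp1r3c, a glycogen-targeting phosphatase subunit, had 53.7 and 152.4 (1.44), whereas Ppp1r3g, another such subunit, had 24.4 and 12 (-1.09). The other 10 shared sites of Irs2 lay between -0.68 and 0.99.

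Inflammation and acute-phase genes had 52 shared sites, 6 raised (11.5%, near the 10.2% of all sites) and 0 lowered. The median was 0.44 (-0.02 by the other centring). Saa1, serum amyloid A, had 23.1 and 73.9 (1.61), Hp, haptoglobin, 26.0 and 65.1 (1.25), and Orm1, orosomucoid, 19.3 and 42.3 (1.06). Clock genes had 66 shared sites with 4 raised and 0 lowered, and a median of 0.05 (-0.41 by the other centring). The repressor gene Nfil3 had 8.55 and 37.5 (2.06) at a site 3.05 kb from its body. Cry2, a repressor of the clock, had 18 and 60.8 (1.69), and the nuclear receptor gene Rora 12.2 and 38.3 (1.58). The raised share of the clock list, 6.06%, was below the 10.2% of all sites.

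Lipogenesis genes had 70 shared sites with 9 raised (12.9%) and 0 lowered (median 0.24, -0.22 by the other centring). Insig2, which holds back SREBP processing, had 3 shared sites, all of them raised, led by 14.7 and 47.3 (1.62). Dgat2, an enzyme of triglyceride synthesis, had 17.5 and 39.1 (1.09), Acacb, acetyl-CoA carboxylase 2, 9.46 and 22.8 (1.20), and the desaturase gene Fads1 19.7 and 44.0 (1.09). Fatty acid oxidation and ketogenesis genes had 38 shared sites with 6 raised (15.8%) and 0 lowered (median 0.49). Pdk4, whose values are given above, belongs to this list too, with 4 of the 6 raised sites.

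Bile acid and cholesterol genes had 62 shared sites with 9 raised (14.5%) and 0 lowered (median 0.42, -0.04 by the other centring). Abca1, the cholesterol exporter, had 20.9 and 105.4 (2.27), and Cyp27a1, a sterol hydroxylase of bile acid synthesis, 23.7 and 66.1 (1.41). Genes of the growth hormone and STAT5 axis had 56 shared sites with 6 raised (10.7%) and 2 lowered (3.57%). These shares were near the 10.2% and 3.19% of all sites, and the median was 0.23 (-0.24 by the other centring). Socs2, a feedback inhibitor of the growth hormone receptor, had 10.4 and 42.8 (1.97), and Mup20, a major urinary protein, 12.4 and 42.1 (1.69). A site 91.8 kb from Bcl6, a transcriptional repressor gene, had 58.4 and 141.7 (1.21). Inside Bcl6 a lowered site had 15.5 and 7.16 (-1.18). A site 73.1 kb from Igf1, the gene of insulin-like growth factor 1, had 22.4 and 10.3 (-1.19).

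Genes of the corepressor complex and nuclear receptors had 72 shared sites with 8 raised (11.1%) and 3 lowered (4.17%). These shares were near the 10.2% and 3.19% of all sites, and the median was 0.32 (-0.14 by the other centring). Tbl1xr1, a subunit of the NCOR complex, had 7.46 and 40.6 (2.38), whereas its relative Tbl1x had 31.7 and 15.7 (-1.08). Thrb, the thyroid hormone receptor beta, had 12.7 and 62.8 (2.24), and Rxra, the shared partner of many nuclear receptors, 20.6 and 60.6 (1.49). Esr1, the estrogen receptor alpha gene, had 28.2 and 13.8 (-1.10). The retinoic acid receptor gene Rarb had 1 raised site (12.2 and 36.8, 1.52) and 1 lowered site (25.3 and 13.2, -1.01). Nr3c1, the gene of GR itself, had 6 shared sites between -0.56 and 0.92 and none past 2-fold.

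Hepatocyte identity genes had 84 shared sites, more than any other list here, with 3 raised, 0 lowered and a median of 0.29 (-0.17 by the other centring). The 7 shared sites of Alb, the albumin gene, lay between -0.12 and 0.29, the strongest with 182.2 and 203.3. Of the raised sites, that of Apob, the core protein of liver lipoproteins, had 13.3 and 42.5 (1.61), and that of Prox1, a transcription factor, 17.7 and 44.6 (1.26). The raised share was 3.57%, below the 10.2% of all sites. Markers of other liver cells carried fewer sites. Kupffer cell and other leukocyte markers had 5 shared sites at 5 of 12 genes, 0 of them raised or lowered, with a median of -0.50. Endothelial, stellate and cholangiocyte markers had 28 shared sites with 5 raised (17.9%) and 0 lowered (median 0.51). Among these, a site 13.3 kb from Tek, an endothelial receptor gene, had 8.74 and 24.8 (1.44), whereas the other Tek site lay at -0.96. A site 61.5 kb from Sox9, a cholangiocyte transcription factor gene, had 9.65 and 27.0 (1.42). Of the 28 sites 18 lay above 0, and those of Des, Reln, Clec4g and Stab1 lay between -0.67 and -0.09. GR sites near a gene do not count cells, and the part of each cell type in these values was not tested.

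**Figure D3:**
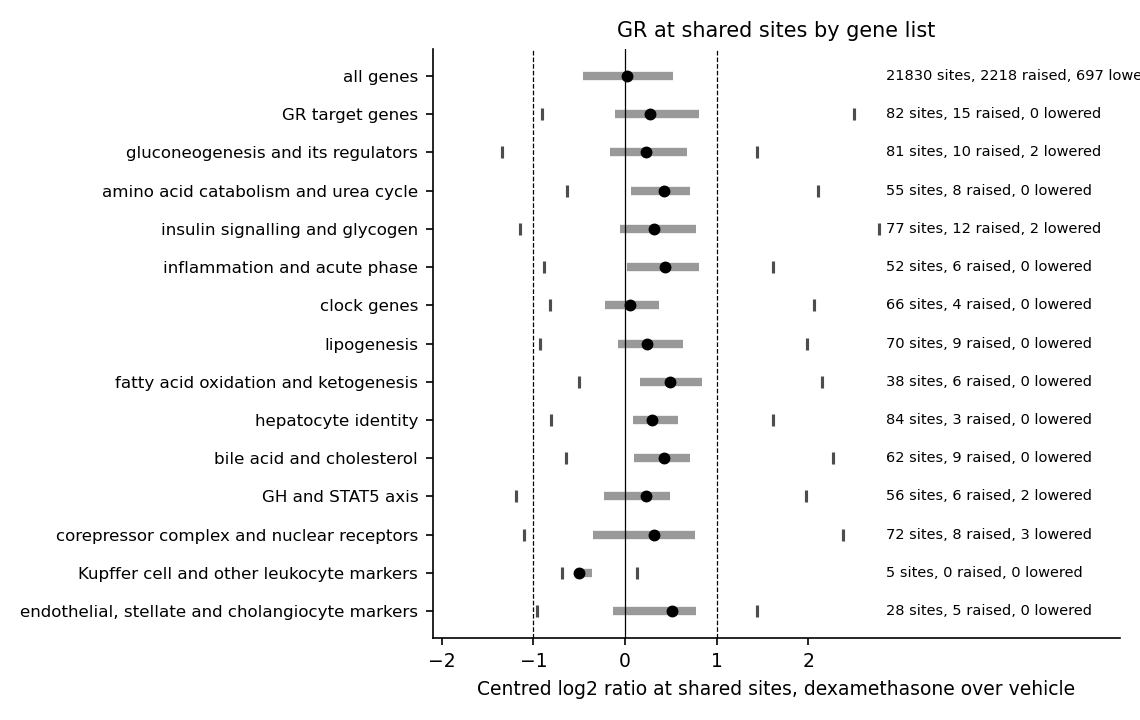
Centred log2 ratio at shared sites for all sites with a gene and for the 14 gene lists: points are medians, thick bars run from the lower to the upper quartile, and ticks mark the lowest and highest site of a list. Medians run from -0.50 for Kupffer cell and other leukocyte markers to 0.51 for endothelial, stellate and cholangiocyte markers, and by the other centring all but 2 of the lists fall below 0.

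The ratio at shared sites differed with the presence of an NCOR1 peak, with overlap between the groups. NCOR1, a corepressor that brings histone deacetylase HDAC3 to nuclear receptors, was mapped in control liver under vehicle (1 library, 17.8 M tags) and dexamethasone (2 libraries, 36.9 M tags). GR sites with an NCOR1 peak in both lists numbered 11723 and had a median centred log2 ratio of 0.27, with 9.46% raised and 0.444% lowered. Sites with no NCOR1 peak in either list numbered 10043 and had a median of -0.50, with 6.6% raised and 7.73% lowered. Of the 854 lowered sites, 776 had no NCOR1 peak in either list. Most of these calls rest on the common centre: with each group on its own centre, 24 sites were lowered and 1203 raised among those with no NCOR1 peak, and 354 and 932 among those with one in either list. These splits were chosen after seeing the data.

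The difference held within each class of strength. From weak to strong, the medians were 0.03, 0.19, 0.28, 0.36 and 0.46 with NCOR1 in both lists, and -0.24, -0.51, -0.55, -0.55 and -0.19 with NCOR1 in neither. In classes 3 and 4 of strength together, sites without NCOR1 were most frequent between -0.75 and -0.5. Those with NCOR1 in either list were most frequent between 0.25 and 0.5, and the groups overlapped. In the strongest class the sites without NCOR1 were themselves divided, with 23.9% raised and 5% to 95% running from -0.89 to 1.91. Sites with NCOR1 in the dexamethasone list only numbered 1578, and 648 of them (41.1%) were raised, with a median of 0.79. In the strongest class their median was 1.34. Those with NCOR1 in the vehicle list only numbered 1232, with a median of 0.03 and 4.38% raised. The NCOR1 dexamethasone list is itself a reading of the treated state, and the lists differ in depth and in number of libraries, whose part in this split was not tested.

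**Figure D4:**
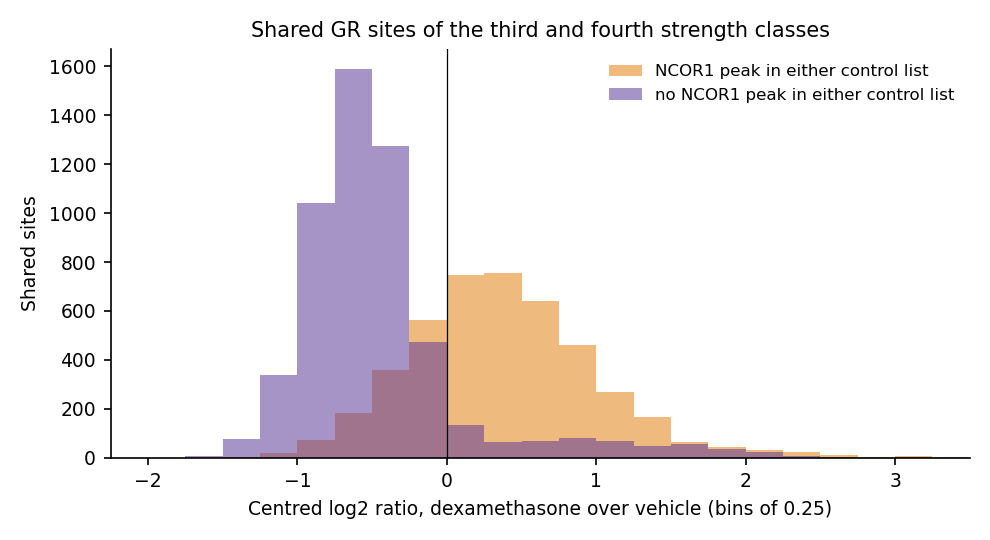
Number of shared GR sites per bin of 0.25 in the centred log2 ratio, for strength classes 3 and 4, split by whether a control NCOR1 peak overlaps the site in either list. Sites without NCOR1 pile up below 0, while sites with NCOR1 centre above 0.

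The sites without NCOR1 differed in other ways. Their fold over the surrounding 10 kb, the geometric mean of the authors' values in both lists, had a median of 15.0 against 8.16 at sites with NCOR1 in both lists. The centres of the paired peaks lay a median of 8 bp apart against 22 bp, and 15.1% against 8.55% had no protein-coding gene within 100 kb. Both dKO lists held 82.8% of them, against 56.3%. Sorted by fold over local alone, the median centred log2 ratio was 0.09 up to 6-fold, 0.18 from 6 to 8, 0.20 from 8 to 12, -0.13 from 12 to 16, -0.43 from 16 to 24 and -0.48 above 24. Of the sites above 24-fold, 74.3% lacked NCOR1 in both lists. In the strongest class of sites this order did not hold, with medians of 0.40, 0.42, 0.47, 0.49, 0.56 and 0.25 over the same steps.

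The dKO lists give a second reading of the drug in other animals. They share with the control lists the input library, used in calling peaks and not in the tag counts. Other things they may share, such as a batch, were not examined. All 4 GR lists held 16149 of the shared sites. Over these sites the centred ratios of control and dKO gave Pearson's r of 0.801 and Spearman's rho of 0.773, as a description over sites that share strength and surroundings, and 87.3% had the same sign. Of the 2474 raised sites, 1538 (62.2%) were in both dKO lists, where their median was 1.10 and 57.5% were also raised against 9.68% of all dKO shared sites. None of the 1538 was lowered there. Of the 854 lowered sites, 796 (93.2%) were in both dKO lists, where their median was -0.63. Of these 12.9% were also lowered, against 5.05% of all dKO shared sites, and 0 were raised. Lowered sites kept their sign in dKO in 773 of 796 cases, at a smaller size than in control, where they were picked by size. Of the sites within 2-fold in control, 7814 of 13815 were below 0 in dKO. Among all 8318 sites in both dKO lists with no NCOR1 peak in either control list, the dKO median was -0.60. That group includes most lowered sites, so their sign in dKO is largely that of the group.

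**Figure D5:**
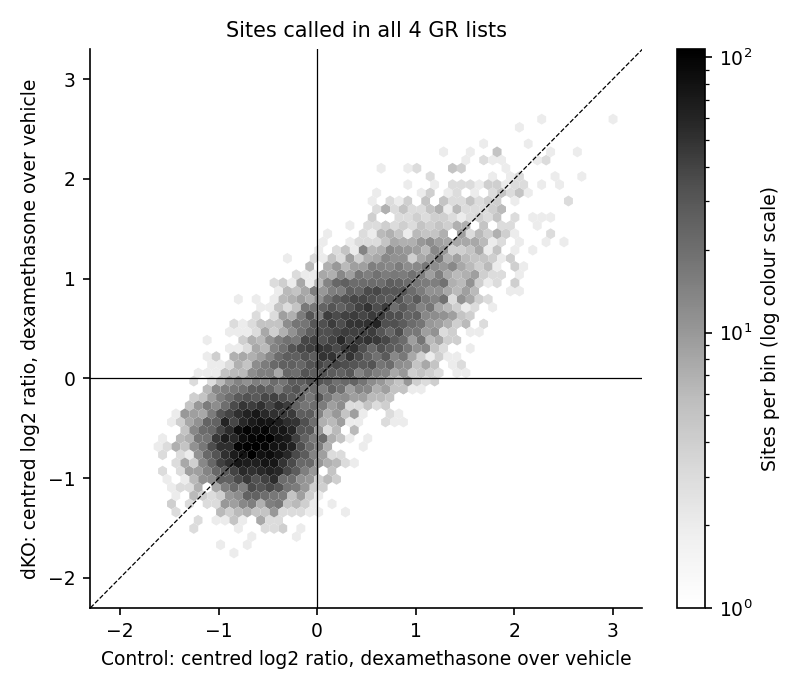
Centred log2 ratio of dexamethasone over vehicle in control liver (horizontal) against dKO liver (vertical) for the 16149 sites called in all 4 GR lists, shaded by number, with a dashed line of equality. A dense group lies near -0.6 on both axes and a broad band runs along the diagonal above 0.

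Among the 12 most raised sites the dKO vehicle list had a peak at 3, so most have no dKO ratio. Gpat4 had 10.1 under vehicle and 62.8 under dexamethasone in dKO liver (2.74), Mctp2 5.78 and 60.8 (3.5), and Tac4 12.7 and 44.7 (1.92). Anapc16 had 112.2 and Cldn14 102.2 in the dKO dexamethasone list with no peak in the dKO vehicle list. All 12 sites had a dKO dexamethasone peak, the weakest at 12.4 near Serpina3n. At the 5 strongest sites the dKO ratios lay between 0.30 and 0.70, with 433.8 and 536.4 (0.41) at Klf13 and 311.1 and 415.3 (0.52) at Zbtb16. Fkbp5 at its main site had 66.0 and 350.9 (2.52) in dKO against 0.76 in control, and Tat 45.0 and 182.7 (2.13) against 0.99. The difference between genotypes was not tested, since no list has a spread between animals.

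Raised sites lay away from transcription starts. Within 1 kb of an annotated start lay 5.82% of raised sites (4.91 to 6.83), 14.4% of sites within 2-fold (13.9 to 14.9) and 9.23% of lowered sites (7.34 to 11.4). These shares are of 2390, 20551 and 823 sites. Chromosome 18 had no promoter windows and was left out of all distances to a start. The median centred log2 ratio was -0.21 within 1 kb of a start, 0.08 from 1 to 10 kb, 0.06 from 10 to 100 kb and -0.15 beyond 100 kb. In the strongest class it was 0.17 within 1 kb and 0.46, 0.50 and 0.51 in the 3 farther ranges. The share inside a protein-coding gene was 54.0% for raised, 55.1% for sites within 2-fold and 51.2% for lowered sites, which differ little.

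Dexamethasone-only sites were mostly weak, and a few were strong. Their median tag count was 8.82, against 14.0 at shared sites of the same list. They made up 69.8% of the weakest of 5 equal classes of dexamethasone peaks and 15.4% of the strongest, and 67.8% of them stood less than 8-fold above the 10 kb around them, against 33.3% of shared sites. Vehicle-only sites had a median of 8.19, and made up 35.2% of the weakest and 2.23% of the strongest class of vehicle peaks. Of the vehicle-only sites 83.3% had less than 8-fold over local. Counts of at least 30 were found at 466 dexamethasone-only and 8 vehicle-only sites, and counts of at least 50 at 108 and 1. A peak needed 15 tags and had to pass filters of 4-fold over input and over the local 10 kb. The input and local filters removed 12340 and 7750 of 50102 putative vehicle peaks. Under dexamethasone they removed 18923 and 12713 of 72489. Absence from a list thus means that no peak was called at that depth and by these filters, and not that tags were lacking.

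The strongest dexamethasone-only sites were those inside Cdk17, a cyclin-dependent kinase gene (223.6), near Armc12 beside Fkbp5 (211.8), inside Zbtb16 (207.5), Rnf169 (191.8) and Cdkal1 (191.3), then Washc2 (125.5), Nek7 (124.0) and Tef, a clock output gene (117.6). Cdkal1 and Nek7 had no vehicle peak within 62.1 and 35.1 kb, whereas at Armc12 and Zbtb16 the nearest vehicle peak lay 0.758 and 0.908 kb away. Cdkal1 stood 57.7-fold over the local 10 kb and Armc12 5.06-fold. The Cdo1 gene, which has 2 raised shared sites, also had a dexamethasone-only site of 117.1.

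Vehicle-only sites were led by one on chromosome 8 with no protein-coding gene within 100 kb (126734881, count 55.7), then Kcnk16 (43.0), the metallothionein gene Mt2 (38.4), Poc1a (35.9), the presenilin gene Psen2 (34.9), another without such a gene, on chromosome 6 (33.5), Cyp27a1 (31.3) and Grhpr, the glyoxylate reductase gene (30.9). The Mt2 peak lay 30 bp from a start and 0.939 kb from the nearest dexamethasone peak. Of these 8 sites 7 had a fold over local of 4.62 to 6.98, near the calling limit of 4, and only that of Psen2 stood at 22.2. Vehicle-only sites lay within 1 kb of a start in 23.6% of cases, against 9.98% of dexamethasone-only and 13.3% of shared sites, chromosome 18 left out. An NCOR1 peak of the same state overlapped 61.2% of vehicle-only and 40.9% of dexamethasone-only sites. The dKO list of the same treatment held 33.5% of dexamethasone-only and 28.6% of vehicle-only sites, against 78.3% and 72.8% of shared sites.

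By gene, 9697 protein-coding genes had a shared site, 1716 had a raised one, 667 a lowered one and 106 both. Dexamethasone-only sites fell at 7070 genes and vehicle-only sites at 3326, with 1965 genes having both. The genes with most raised sites, chosen after their values were seen, were Nfia, a transcription factor gene (7 of 21 shared sites), Rad51b, a DNA repair gene (6 of 21), Zbtb20, a zinc finger repressor gene (6 of 17) and Zfp608 (6 of 13). Bcl2l1, the gene of the survival protein BCL-xL, had 5 of 7 and Fyb2, whose promoter is printed above, 5 of 9. Zbtb20 had 23 dexamethasone-only sites and 1 vehicle-only site. The genes with most lowered sites were Ank2 (3 of 9) and the calcium channel gene Cacna1c (3 of 8), with medians of -0.59 and -0.74. Long genes hold more sites, which these counts do not allow for.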

How the data were processed

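GR peak lists of control liver under vehicle and dexamethasone were compared; dKO and NCOR1 lists were set beside them. The submitters' processing notes list Trim Galore 0.6.4, BWA 0.7.17, HOMER 4.11, bedtools 2.29.2 and mm10. Peaks of 200 bp were called by the authors with HOMER findPeaks on tags pooled over libraries, at 4-fold over input and over the local 10 kb and with at least 15 tags for the GR lists (16, 11 and 12 for the NCOR1 lists), per the file headers. The deposited normalized tag count is a signal per 10 M tags, and the findPeaks score is the authors' value. The fold over input and local is a ratio the authors computed, and the p-value, at most 0.0001 against input, is theirs too, per the file headers. The columns carry pooled values, so no test was run.

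Pairing, centring and 95% Clopper-Pearson intervals (counting error only) were computed in Python 3.11.15 with numpy 2.4.6, pandas 2.3.3 and scipy 1.17.1. Pairs were checked against bedtools 2.31.1 and tested on simulated data. Sites went to the nearest protein-coding gene body within 100 kb, of 21900 genes on GRCm38.p6 (the build mm10 names). Distance to a start was taken from RefSeq promoter windows, which did not include chromosome 18. Named genes are those of the 12 most raised and 12 most lowered shared sites with a geometric mean count of at least 14.4, the 8 strongest sites of each condition-only class, the 5 strongest shared sites, list members past 2-fold at that strength (up to 4 in each direction) and 8 GR-regulated genes; other sites of these genes, other list members and the promoters shown were named after their values were seen. Results for a few genes that this rule names are not reported here. Members and lists were chosen with earlier results of these data known. Alternatives were the score, other centrings, fold limits, overlaps and gaps, stricter peaks, lists of equal length and a nearer gene window; NCOR1 splits, and raised and lowered sites among stricter peaks and lists of equal length, were added after seeing the data.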

Additional observations from a re-analysis of the deposited data

Results flagged for a closer look

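At the Bsg site on chromosome 10 (start 79706757), the drop of control liver was not seen in dKO. Control liver had 27.1 under vehicle and 10.3 under dexamethasone (centred log2 ratio -1.46). In dKO liver the counts were nearly equal, 8.99 and 9.09 (1.01-fold, or 0.12 after centring on the dKO median of -0.11). The paired control peaks lay 61 bp apart, and the dexamethasone peak stood 5.91-fold over local. The site was singled out among the 12 most lowered sites, the other 11 of which were below 0 in dKO too, and the difference was not tested. NCOR1 had a peak there in both control lists and not in the dKO list.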

How the results depend on the processing

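No paired analysis was possible because each list pools its libraries, and for the same reason leaving out a replicate could not be run. With at least 8-fold over input and local, 10489 sites were shared, 7068 dexamethasone-only and 2780 vehicle-only, and the median log2 ratio was -0.19 in place of 0.07; counted after seeing the data, 1447 were raised and 107 lowered (93.1% of calls raised). With lists of equal length the condition-only classes held 8054 and 8160 sites, about equal by construction, the median was 0.16, and 68.3% of calls were raised (2033 against 944, also counted later). At a limit of 1.5-fold 5451 sites were raised and 4737 lowered. Centred on the strongest of 5 classes by strength, 968 were raised and 5316 lowered, and 15.4% of calls were raised; without centring it was 82.6%, with the findPeaks score 78.5% and as reported 74.3%. In splits added after seeing the data, sites with NCOR1 in either control list had a median of 0.36 and, on their own centre, 932 raised and 354 lowered; those with none had -0.43, 1203 and 24. An overlap of at least 100 bp, gaps of 200 and 1000 bp and the score kept the counts of sites they bear on within 1.5 times. With a gene window of 10 kb the median of every list lay within its 95% interval over sites, but over 1.5 times fewer sites were shared in 5 of 14 lists and raised in 7. Insulin signalling went from 77 shared and 12 raised to 34 and 4, hepatocyte identity from 84 and 3 to 45 and 1, and GR targets from 82 shared to 52. Of the 83 named sites, centring on the strongest class moved 30 by more than their counting interval and turned the sign of 3 (Klf13 0.03 to -0.43, agouti 0.12 to -0.34, Pck1 0.07 to -0.39). The score turned Klf13 (-0.07), and no centring turned Zbtb16 (-0.03 to 0.04). None of the 72 sites past 2-fold changed sign under these 3. Pooled lists at 27.5 to 30 M tags limit most what can be said of weak sites near 15 tags.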

Other observations

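Neighbouring shared sites had like ratios, more so the nearer they were. Adjacent sites under 1 kb apart (645 pairs) had Pearson's r of 0.493, those 1 to 5 kb apart (1661 pairs) 0.364, 5 to 20 kb (6332 pairs) 0.199, 20 to 100 kb (9404 pairs) 0.132 and beyond 100 kb (6513 pairs) 0.0845; nearby sites share their surroundings and are no independent points. Of the dexamethasone-only sites, 16.9% lay within 5 kb of a shared site, and the nearest shared site was raised for 12.6% of these. This was 14.6% at 5 to 20 kb and 9.31% beyond 100 kb; for vehicle-only sites it was 14.6% within 5 kb and 8.79% beyond 100 kb, against 10.1% of all shared sites.

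By chromosome, the 527 shared sites of the X chromosome had a median centred log2 ratio of -0.35, whereas the autosomes ran from -0.09 for chromosome 11 to 0.10 for chromosome 19. On the X 7.40% were raised and 5.31% lowered, and vehicle-only sites were 8.78% of its vehicle peaks.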
